A study of Homo sapiens with 20 samples.

Results

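Keratins are the intermediate filament proteins of epithelial cells, and their genes were read here in a human breast epithelial cell line after transfection of a miRNA mimic. All genes with a symbol of KRT followed by digits, with or without a trailing letter, were taken as members, leaving out keratin-associated proteins and pseudogenes. The gene table lists 55 such genes, of which 29 are type I and 26 are type II. A probe was named for 49 of them, among 20741 genes with a probe on either array version. The arrays of the miR-4728-3p experiment held 57 probes for 48 keratins, and those of the miR-1 experiment held 58 probes for 49. No probe was named for KRT6A, KRT6B, KRT17, KRT81, KRT82 or KRT86, so these genes were not analysed here, and KRT31 was measured in the miR-1 experiment only.

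The cells were MCF 10A, a non-tumorigenic, immortalised line of mammary epithelium, so that each group is the same line and not a set of donors. In the first experiment 6 arrays of cells given a mimic of hsa-miR-4728-3p were set against 6 arrays of cells given control siRNA. In the second, 4 arrays of cells given a mimic of hsa-miR-1-3p were set against 4 arrays of control cells. For these arrays the study names a non-targeting control. Oligonucleotides were delivered with the lipid reagent Lipofectamine, at 100 nM unless otherwise stated in the labels, and the study describes the arrays of a group as biological replicates. The experiments used different versions of the Illumina HumanHT-12 bead array and each had its own control. Median array intensity lay between 101 and 135 in the first experiment and between 92 and 121 in the second, and each array correlated with the mean of the other arrays of its group at 0.989 or above.

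Keratin filaments are built from pairs, with 1 acidic type I chain and 1 basic type II chain, and which pair a cell makes depends on its place in the epithelium. In the breast, KRT5 and KRT14 mark basal and myoepithelial cells, whereas KRT8 and KRT18, with KRT7 and KRT19, mark luminal cells. KRT6 and KRT16 are made by keratinocytes that are activated, as at the edge of a wound. KRT10 and its partner KRT1 mark the suprabasal layers of the epidermis, and KRT13 and its partner KRT4 those of wet stratified epithelia. The hair keratins build hair and nail, and another set belongs to the root sheath of the hair follicle.

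The sequences of the transfected miRNAs are shown because they are what the mimic groups were given. Both are RefSeq mature sequences placed on GRCh38.p14. Capitals in the first and the last line mark bases 2 to 8 from the 5′ end, the seed. In the line between them, capitals mark bases 6 to 12, the second stretch that the study examined for miR-4728-3p. The seeds of the 2 miRNAs are different.
hsa-miR-4728-3p, bases 2 to 8: cAUGCUGAccucccuccugccccag
hsa-miR-4728-3p, bases 6 to 12: caugcUGACCUCccuccugccccag
hsa-miR-1-3p, bases 2 to 8: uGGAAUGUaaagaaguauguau

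The first lies on chromosome 17 from 39726537 to 39726561 on the plus strand and has 25 nt. The mature miR-1-3p of 22 nt is encoded at MIR1-1, on chromosome 20 from 62554351 to 62554372 on the plus strand, and at MIR1-2, on chromosome 18 from 21829015 to 21829036 on the minus strand.

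Only a minority of the family lay above background. A probe was taken as above background in a group if its intensity exceeded, on every array of that group, the 95th percentile of the probes for olfactory receptors, genes that breast epithelium is taken not to express. A keratin was counted if any 1 of its probes passed. By this rule 11 of 48 keratins were above background in both groups of the miR-4728-3p experiment, and 12 of 49 in both groups of the miR-1 experiment. The 11 keratins above background in all 4 groups were the basal KRT5, KRT14 and KRT15, the activation keratins KRT6C and KRT16, the luminal KRT7, KRT8 and KRT18, the squamous KRT10 and KRT13, and KRT80, a type II keratin of differentiating epithelia. The twelfth in the miR-1 experiment was KRT222, a keratin-like gene. Counted by probe, 13 of 57 keratin probes were above background in each group of the first experiment and 14 of 58 in each group of the second. Over all probes with 1 gene name, between 37.94% and 41.47% were above background in a group. The labelled cell type was thus matched by its keratins KRT5, KRT14, KRT7 and KRT18, each above background in every group, while the luminal KRT19 was not.

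**Figure D1:**
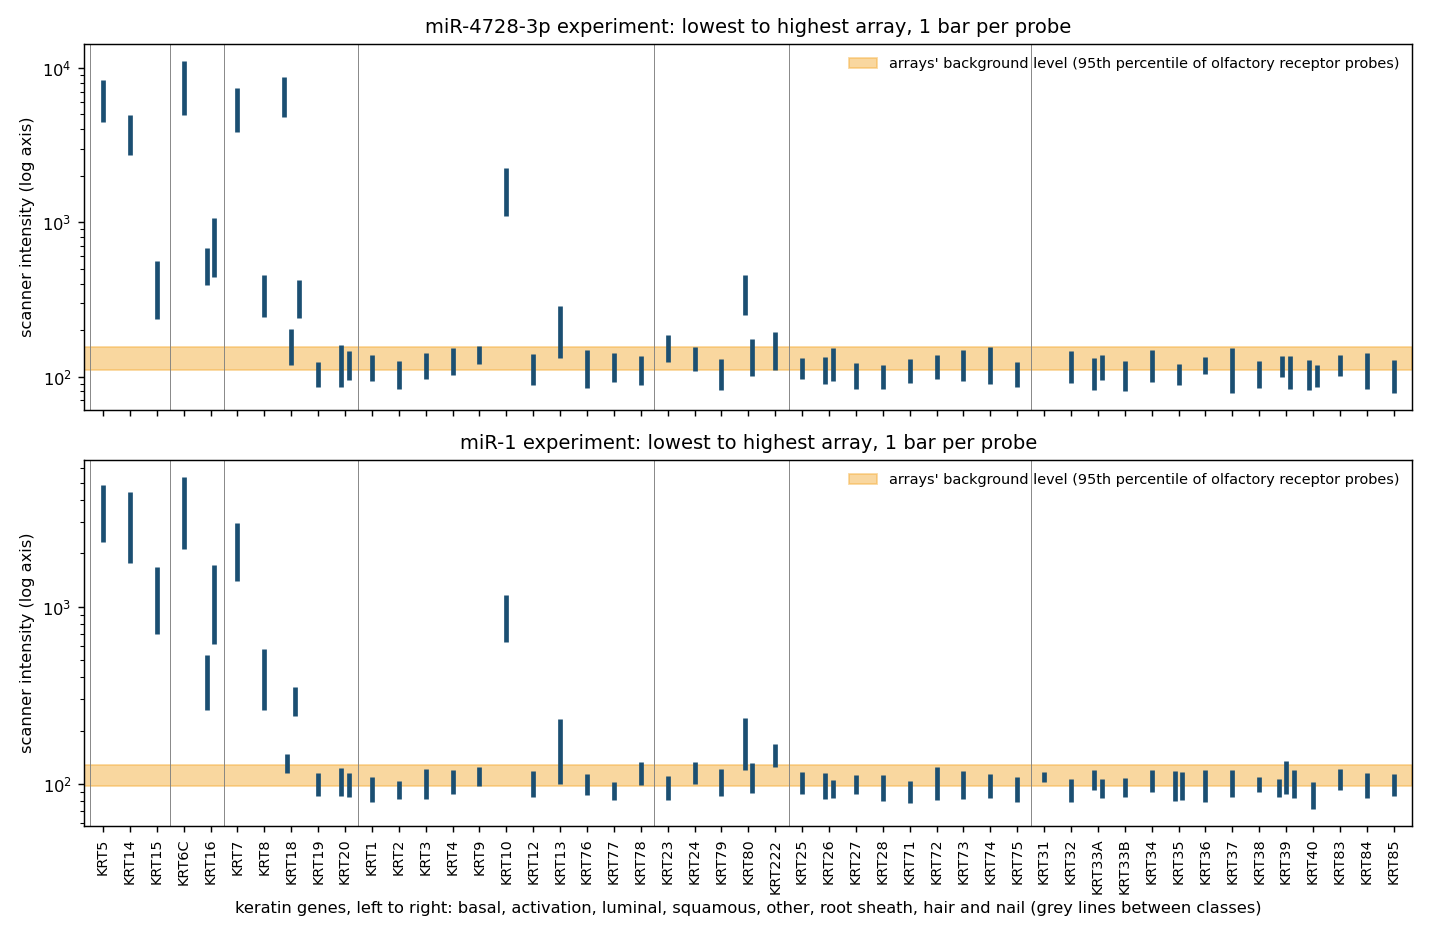
Scanner intensity of each keratin probe on a log axis, as a bar from the lowest to the highest array of an experiment, with genes grouped by class. The orange band spans the background levels of the arrays; 11 keratins have a bar that rises well out of it in both experiments, while those of the root sheath and of the hair and nail keratins lie in it, under it or at its upper edge.

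None of the 9 root sheath keratins and none of the hair and nail keratins with a probe, 13 in one experiment and 14 in the other, was above background in a group. Of the 11 squamous keratins, KRT1, KRT2, KRT3, KRT4, KRT9, KRT12, KRT76, KRT77 and KRT78 were not above background, so that neither KRT1, the partner of KRT10, nor KRT4, the partner of KRT13, reached it. KRT19 read between 85 and 125 on the miR-4728-3p arrays and between 86 and 116 on the miR-1 arrays, where the background level was 111 to 154 and 97 to 128. KRT76, an oral suprabasal keratin that the study lists as a predicted target of miR-4728-3p, read between 84 and 149 and exceeded background on 1 of 12 arrays, and between 87 and 114 on the miR-1 arrays, where it exceeded background on 0 of 8. Its mean log2 value was 6.23 with the mimic and 6.02 in the controls, and it was too dim to be tested.

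Differences were tested with limma on log2 intensities over the brighter part of the probes, those whose mean exceeded the overall median, and a gene was called at an adjusted p under 0.05 over all tested probes. A gene with several tested probes is represented by the one with the highest mean. This left 16 of 48 keratins in the miR-4728-3p experiment and 16 of 49 in the miR-1 experiment, which are the brighter members and not the family as a whole. The probes left untested read between 78 and 159 and between 72 and 135. All values given below are log2 normalised intensities, and a change is the mimic mean minus the control mean on that scale. Values of different probes cannot be ranked against each other, since probes differ in how strongly they bind.

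With miR-4728-3p few keratins changed, in opposite directions. KRT6C rose 1.32-fold and KRT80 fell 1.53-fold. Thus 1 of 16 tested keratins was higher and 1 was lower, where 3.94% of 11820 tested genes were higher and 3.8% were lower. The median change was 0.03 over the tested keratins and -0.02 over all tested genes. The tested keratins KRT4, KRT9, KRT23, KRT24 and KRT222 were not above background. None of them was called, with changes between -0.12 and 0.20. The count called higher moved to 3 (KRT15 and KRT8 added) with no background correction, with the authors' normalised values, with a filter at the 75th percentile or without control replicate 4. Over all tested genes these settings called 493, 492, 463 (of 8264 tested) and 422 higher, against 466. The keratin count was 2 (KRT15 added) with array weights, with the trend and robust options of eBayes, or without mimic replicate 5 or control replicate 1. Over all tested genes 470, 480, 395 and 467 were then higher.

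With miR-1, 8 of 16 tested keratins were higher and 0 were lower, where 1.45% of 11899 tested genes were higher and 1.24% were lower. The raised keratins were KRT14, KRT15, KRT6C, KRT16, KRT7, KRT8, KRT13 and KRT80, by 1.38-fold to 1.85-fold. They included 4 of 9 tested type I and 4 of 7 tested type II keratins. The count called higher was 5, with KRT15, KRT7 and KRT8 lost, with an offset of 16 in place of 50 in the background correction, with the replicate block (the replicate number as a term in the fit), without control replicate 2 or without mimic replicate 3. Over all tested genes the number called higher also fell, from 173 to 99, 67, 121 and 101 in the same order. The median change was 0.36 over the tested keratins and -0.01 over all tested genes. By class, 2 of 3 basal, 2 of 2 activation, 2 of 3 luminal and 1 of 4 squamous keratins were higher, and so were KRT80, of 3 tested keratins outside these classes, and 0 of 1 hair keratins. The classes hold too few tested genes to be ranked by these counts. The other 5 tested keratins, KRT9, KRT24, KRT78, KRT83 and KRT222, read close to background, and none was called, with changes between -0.10 and 0.04.

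**Figure D2:**
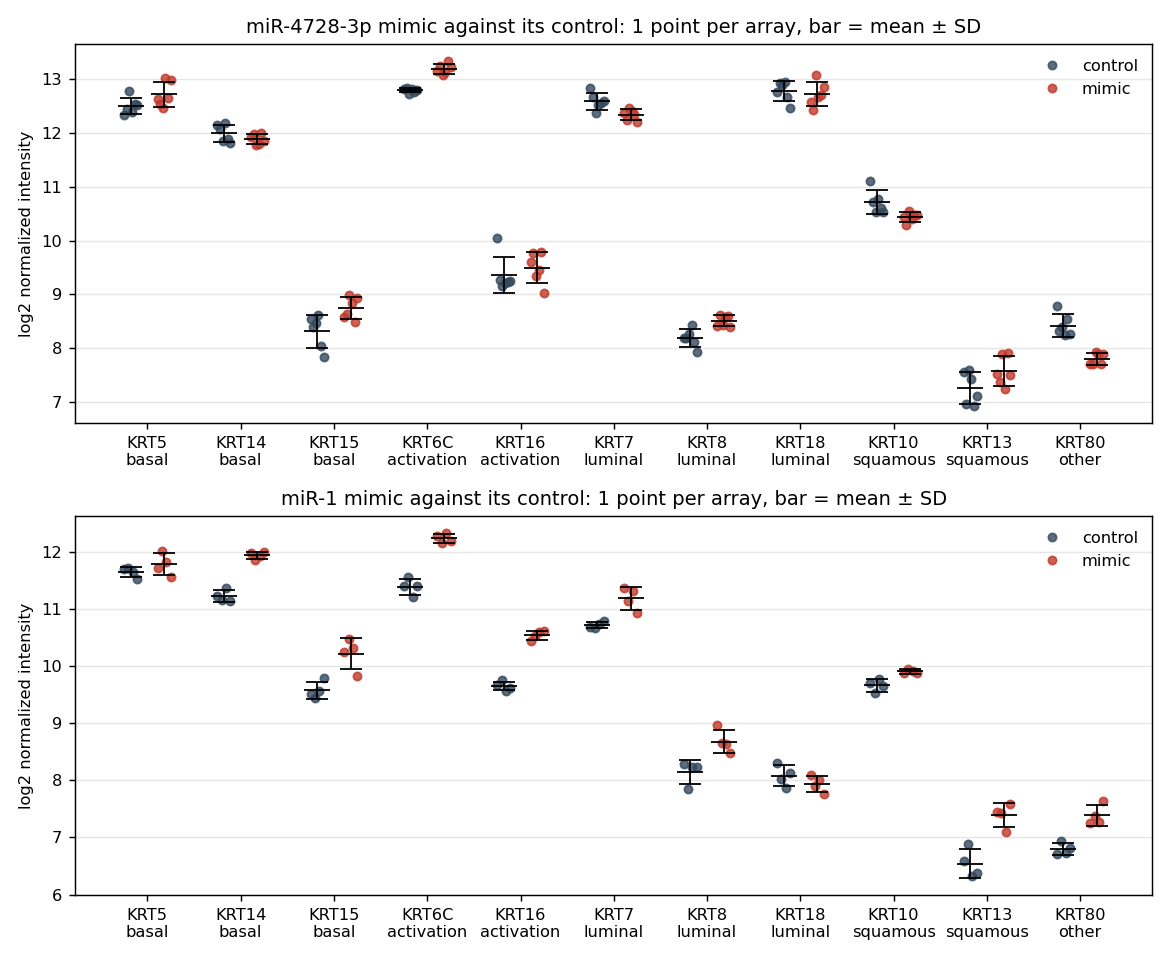
Log2 normalised intensity of the 11 keratins above background in all 4 groups, 1 point per array, with the mean and SD of each group as black bars. In the upper plot (miR-4728-3p, 6 arrays a group) mimic and control points overlap for every gene except KRT6C and KRT80. In the lower plot (miR-1, 4 arrays a group) they overlap only for KRT5 and KRT18. The share of all tested genes without overlap was not counted, and KRT10, without overlap in the lower plot, was not called.

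Among the basal keratins, KRT14, the type I partner of KRT5, was higher with miR-1 and was not called with miR-4728-3p. In the miR-1 experiment KRT14 read 11.98, 11.86, 11.92 and 12 with the mimic and 11.23, 11.16, 11.36 and 11.13 in the controls. Every mimic array was above every control array. The change was 0.72 (SE 0.08, adjusted p = 0.000218 from limma), or 1.65-fold. In the miR-4728-3p experiment KRT14 ranged from 11.77 to 12 with a median of 11.88 in the mimic arrays, and from 11.81 to 12.18 with a median of 11.98 in the controls. The groups overlapped, and the change of -0.11 was not called (adjusted p = 0.681 from limma, 95% interval -0.31 to 0.09).

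KRT5, the type II chain that pairs with KRT14, was not called with either mimic. With miR-1 it read 11.72, 12.02, 11.82 and 11.56, against 11.69, 11.71, 11.65 and 11.53 in the controls. The ranges overlapped, and the change of 0.13 had a 95% interval of -0.07 to 0.34 (adjusted p = 0.642 from limma). With miR-4728-3p it ranged from 12.47 to 13.02 (median 12.63), against 12.34 to 12.78 (median 12.49). That change of 0.21 had an interval of -0.02 to 0.45 (adjusted p = 0.38 from limma). Whether KRT14 and KRT5 differed from each other in their response to miR-1 was not tested.

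KRT15, a type I keratin of basal cells that is commonly used as a marker of epithelial stem cells in skin, was higher with miR-1. It read 10.25, 10.48, 10.31 and 9.83 with the mimic and 9.51, 9.44, 9.56 and 9.79 in the controls. The lowest mimic array lay just above the highest control array. The change was 0.64 (SE 0.12, adjusted p = 0.0138 from limma). The call ended without control replicate 2 (change 0.60, adjusted p = 0.0544 from limma) and without mimic replicate 3 (change 0.61, adjusted p = 0.0589 from limma), and also with an offset of 16 (0.67, adjusted p = 0.0509) and with the replicate block (adjusted p = 0.0872). With miR-4728-3p KRT15 ranged from 8.48 to 8.99 (median 8.74), against 7.83 to 8.61 (median 8.44) in the controls. The groups overlapped and the change of 0.43 narrowly missed the threshold (adjusted p = 0.0513 from limma). It passed without mimic replicate 5 (0.48, adjusted p = 0.0365), control replicate 1 (0.48, adjusted p = 0.0397) or control replicate 4 (0.49, adjusted p = 0.0333, all from limma). Without any 1 of the other 9 arrays it stayed uncalled. The smallest change was that without control replicate 6 (0.33, adjusted p = 0.137 from limma).

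The activation keratins were higher with miR-1 in both tested members. KRT16, a type I keratin, read 10.43, 10.53, 10.59 and 10.61 with the mimic and 9.67, 9.75, 9.57 and 9.61 in the controls. Its change of 0.89 (SE 0.08, adjusted p = 3.38e-05 from limma), or 1.85-fold, was the largest of any keratin in either experiment under the settings used here, by the probe that represents each gene. The other KRT16 probe read 8.64, 8.75, 8.65 and 8.36 against 7.85, 7.96, 7.91 and 8.24. It moved the same way, by 0.61 (adjusted p = 0.00621 from limma), with no overlap between the groups. Signal of KRT16 may be shared with its pseudogene KRT16P2, whose 2 probes on these arrays were 0.56 and 0.45 higher (adjusted p = 0.00397 and 0.0307 from limma). Array probes of such close copies cannot be told apart here.

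With miR-4728-3p neither KRT16 probe was called. The brighter ranged from 9.03 to 9.79 (median 9.54) with the mimic and from 9.16 to 10.04 (median 9.24) in the controls. Control replicate 1 held the value of 10.04, and the next highest control was 9.27. The change was 0.14 (adjusted p = 0.733 from limma), and that of the other probe was 0.18 (adjusted p = 0.45 from limma).

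KRT6C, a type II keratin, was the member called in the same direction with both mimics. With miR-1 it read 12.27, 12.16, 12.32 and 12.18, against 11.40, 11.55, 11.20 and 11.40 in the controls, a change of 0.85 (SE 0.09, adjusted p = 0.00013 from limma), or 1.80-fold. With miR-4728-3p it ranged from 13.07 to 13.33 (median 13.19), against 12.73 to 12.84 (median 12.81), a change of 0.40 (SE 0.09, adjusted p = 0.00484 from limma). In each experiment all mimic arrays lay above all control arrays. The KRT6C sequence is nearly identical to those of KRT6A and KRT6B, for which no probe was named, so that the values may hold transcripts of all 3 genes.

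Of the luminal keratins, KRT7 and KRT8 were higher with miR-1 and KRT18 was not called. KRT7, a type II keratin of simple and glandular epithelia, read 11.37, 11.13, 11.31 and 10.93 with the mimic and 10.69, 10.66, 10.74 and 10.79 in the controls. The groups did not overlap, and the change was 0.47 (SE 0.10, adjusted p = 0.0197 from limma). The call ended without any 1 of control replicates 1, 2 and 4 and mimic replicates 1 and 3, with changes of 0.46, 0.45, 0.49, 0.41 and 0.42 and adjusted p from limma of 0.0624, 0.0687, 0.0518, 0.0531 and 0.0815. It also ended with an offset of 16 (0.48, adjusted p = 0.0768 from limma) and with the replicate block (adjusted p = 0.0834). With miR-4728-3p KRT7 lay the other way, from 12.20 to 12.47 (median 12.36) against 12.36 to 12.84 (median 12.57). That change of -0.25 was not called (adjusted p = 0.164 from limma).

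KRT8, the type II partner of KRT18, read 8.96, 8.65, 8.63 and 8.47 with miR-1 and 8.28, 7.84, 8.24 and 8.24 in the controls. The groups did not overlap, and the change was 0.53 (SE 0.12, adjusted p = 0.0294 from limma). Control replicate 2, at 7.84, stood below the other controls, and without it the change was 0.42 and no longer called (adjusted p = 0.0826 from limma). The call also ended without any 1 of control replicates 3 and 4 and mimic replicates 1, 2 and 3, with changes of 0.55, 0.56, 0.43, 0.54 and 0.54 and adjusted p from limma of 0.0517, 0.0731, 0.0691, 0.0602 and 0.0757, and with an offset of 16 (0.59, adjusted p = 0.0859) or the replicate block (adjusted p = 0.0614). With miR-4728-3p KRT8 ranged from 8.40 to 8.62 (median 8.51), against 7.93 to 8.43 (median 8.19). The change of 0.32 narrowly missed the threshold (adjusted p = 0.0545 from limma), which it passed without control replicate 4 (0.37, adjusted p = 0.0297 from limma). Without any 1 of the other 11 arrays it stayed uncalled. The smallest change was that without control replicate 6 (0.27, adjusted p = 0.139 from limma).

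KRT18, the type I partner of KRT8, was read by 3 probes, none of which was called in either experiment. In the miR-4728-3p experiment the brightest ranged from 12.43 to 13.08 (median 12.68) with the mimic and from 12.47 to 12.94 (median 12.83) in the controls. The ranges were almost the same, with a change of -0.06 (adjusted p = 0.893 from limma, 95% interval -0.30 to 0.18). The other 2 probes changed by -0.09 and -0.21, and the first of them was not above background in that experiment. The annotation of the miR-1 arrays names the brightest probe for no gene. The brighter of its 2 named probes read 8.09, 7.90, 8.0 and 7.76 with miR-1 and 8.31, 8.03, 7.86 and 8.13 in the controls. The groups overlapped, and the change of -0.14 had an interval of -0.36 to 0.07 (adjusted p = 0.637 from limma). The probe without a name in that annotation changed by 0.06 (adjusted p = 0.939 from limma).

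Of the squamous keratins, KRT13 was higher with miR-1. KRT13, a type I keratin of non-cornifying stratified epithelia, read 7.44, 7.43, 7.10 and 7.59 with the mimic and 6.58, 6.89, 6.33 and 6.37 in the controls. All mimic arrays lay above all controls, and the change was 0.85 (SE 0.13, adjusted p = 0.00278 from limma), or 1.80-fold. The control arrays were close to background, with intensities from 100 to 162, and the size of the change moved between 0.64 and 1.19 with the treatment of background. With miR-4728-3p KRT13 ranged from 7.24 to 7.91 (median 7.52), against 6.93 to 7.59 (median 7.27), and the change of 0.31 was not called (adjusted p = 0.247 from limma).

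KRT10, the type I keratin of suprabasal epidermis, was not called with either mimic. It read 9.88, 9.95, 9.92 and 9.87 with miR-1 and 9.70, 9.52, 9.78 and 9.65 in the controls. All mimic arrays were above all controls, yet the change of 0.25 did not pass over all probes (adjusted p = 0.154 from limma). With miR-4728-3p it ranged from 10.29 to 10.55 (median 10.45), against 10.54 to 11.11 (median 10.66), a change of -0.28 (adjusted p = 0.137 from limma). An antisense gene, KRT10-AS1, overlaps KRT10 and had changes of 0.07 and -0.02 on its brighter probe, neither of them called.

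KRT80 was the member called in opposite directions. With miR-4728-3p it ranged from 7.70 to 7.93 (median 7.80), against 8.24 to 8.78 (median 8.36) in the controls. No mimic array reached the lowest control, and the change was -0.62 (SE 0.10, adjusted p = 0.000285 from limma). With miR-1 it read 7.26, 7.37, 7.27 and 7.64, against 6.71, 6.94, 6.72 and 6.82 in the controls. Here every mimic array was above the highest control, with a change of 0.59 (SE 0.10, adjusted p = 0.00485 from limma). These control arrays were close to background, with intensities from 120 to 166. The size of the miR-1 change moved between 0.46 and 0.79 with the treatment of background, and it was called throughout. A second KRT80 probe was not above background in the miR-4728-3p experiment, where it changed by -0.06 (adjusted p = 0.857 from limma), and was too dim to be tested in the miR-1 experiment.

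**Figure D3:**
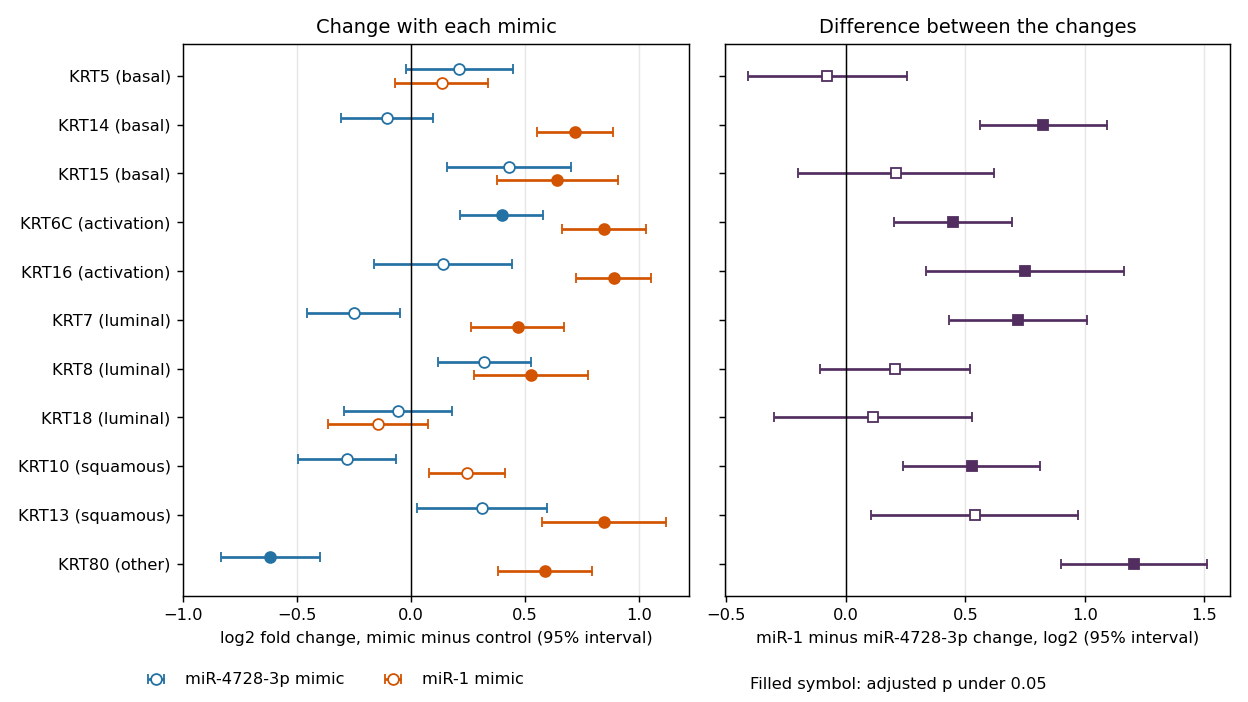
Log2 change with its 95% interval for the 11 keratins in each experiment (left) and the miR-1 change minus the miR-4728-3p change (right), with filled symbols where the adjusted p from limma was under 0.05. KRT80 lies at -0.62 with miR-4728-3p and 0.59 with miR-1; for KRT18 the right plot uses the brightest probe, which the left plot shows for miR-4728-3p only.

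Whether the mimics differed in their effect was tested directly, on probes measured in both experiments. The 2 changes share no array, but the experiments differ in array version and in control, and these cannot be told apart from the mimic. Of 14 keratins tested, 6 had a higher change with miR-1 and 0 a lower one, where 2.99% of 10349 genes had a higher and 3.04% a lower one. The difference was 1.21 for KRT80 (SE 0.15, adjusted p = 1.46e-06 from limma), 0.83 for KRT14 (SE 0.13, adjusted p = 6.99e-05) and 0.72 for KRT7 (SE 0.14, adjusted p = 0.00116). These 3 calls remained without any 1 array.

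The differences of KRT16, KRT10 and KRT6C were called less firmly. KRT16 differed by 0.75 on its brighter probe (adjusted p = 0.025 from limma). That call ended without any 1 of miR-1 control replicates 3 and 4 and mimic replicates 3 and 4. The differences were then 0.72, 0.73, 0.73 and 0.72 (adjusted p from limma of 0.058, 0.0561, 0.0541 and 0.0561). The other KRT16 probe differed in the same direction, by 0.43 (SE 0.16), and was not called (adjusted p = 0.145 from limma). The call for KRT16 thus rests on the brighter probe only. KRT10, called in neither experiment, differed by 0.53 (adjusted p = 0.0234 from limma), and the call ended without miR-1 control replicate 2 or 4 or mimic replicate 2 (0.48, 0.52 and 0.51, adjusted p from limma of 0.0686, 0.0506 and 0.0508). KRT6C, higher with both mimics, differed by 0.45 (adjusted p = 0.024 from limma), and the call ended without miR-1 control replicate 3 or mimic replicate 1 or 3 (0.39, 0.44 and 0.42, adjusted p from limma of 0.078, 0.0513 and 0.0646).

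For the other keratins the difference was not called. It was 0.21 for KRT15 (95% interval -0.20 to 0.62), 0.21 for KRT8 (-0.11 to 0.52), 0.54 for KRT13 (0.11 to 0.97), -0.08 for KRT5 (-0.41 to 0.25) and 0.11 for KRT18 (-0.30 to 0.53). Thus KRT15, KRT8 and KRT13, which were called with miR-1 and not with miR-4728-3p, were not shown to respond differently to the 2 mimics.

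Genes that work with keratins were read in the same fits, in which 3.94% of all tested genes were higher and 3.8% lower with miR-4728-3p, and 1.45% and 1.24% with miR-1. Counts of 0 or 1 in lists this short do not set a list apart from these shares. Of 11 tested genes that anchor or link keratin filaments, 0 were called with miR-4728-3p. With miR-1, 1 of 11 was, PPL, the cytolinker periplakin, which was 0.54 higher (adjusted p = 0.00833 from limma). Among the other intermediate filaments 0 of 4 and 0 of 6 were called, with VIM, or vimentin, at 0.00 and -0.26. Of the cornified envelope genes 0 of 8 were called with miR-4728-3p, and 1 of 6 with miR-1, TGM1, the transglutaminase that crosslinks the envelope, at 0.89 (adjusted p = 0.000147 from limma). TGM1 with miR-4728-3p was at 0.43 (adjusted p = 0.0577 from limma).

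Epithelial transcription factors were called with both mimics, beside the same shares of all tested genes (3.94% higher and 3.8% lower, and 1.45% and 1.24%). With miR-4728-3p, 1 of 11 was higher and 2 were lower: KLF4, a factor of epithelial differentiation, rose by 1.02 (adjusted p = 4.05e-05 from limma), and FOXA1 and TFAP2C, factors of luminal cells, changed by -0.43 and -0.41 (adjusted p = 0.0065 and 0.0167 from limma). The study lists FOXA1, like KRT76, as a predicted target of miR-4728-3p, and whether it is a direct target was not tested here. With miR-1, 3 of 12 were higher and 0 lower: GRHL3 by 0.56, ZNF750 by 0.55 and FOXA1 by 0.47 (adjusted p = 0.0175, 0.011 and 0.0197 from limma). GRHL3 and ZNF750 act in the differentiation of squamous epithelium. The difference between the mimics was called for FOXA1, at 0.89, and for KLF4, at -1.06. Of the markers of leukocytes, endothelium and fibroblasts, 1 gene of each list was bright enough to be tested (CD14, PECAM1 and DCN), and none was called with either mimic. Their control means were 10.22, 6.76 and 9.27 in the miR-4728-3p experiment, and 9.43, 6.54 and 6.53 in the miR-1 experiment.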

How the data were processed

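Total RNA of MCF 10A cells was labelled with biotin and read on Illumina HumanHT-12 bead arrays. The deposited tables used here hold scanner intensities per probe, which the authors had not normalised, with no detection p-values; the authors' values normalised on the Base server, also intensities, served as an alternative. Probes were named from the platform annotation, which gives 1 gene to 27578 of 48803 and to 30113 of 47323 probes. Intensities were corrected with normexp (offset 50), quantile normalised and put on the log2 scale within each experiment, and tested with limma 3.58.1 (lmFit and eBayes, two-sided, Benjamini-Hochberg) in R 4.3.3. Probes with a mean above 6.36 and 6.17 were tested, 20919 and 22031 in all, and the tests were checked on simulated data. Precision is set by the number of arrays. Named in the text are KRT5, KRT14, KRT7, KRT18, KRT76, each keratin called, and more briefly the other tested keratins. The members, classes and other lists were chosen with earlier results of these data known. Alternatives changed the offset, the background correction, the filter, the array weights, the eBayes options and the pairing, and left out each array in turn. Leaving out arrays for the difference between the mimics and for background was added after the data were seen.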

Additional observations from a re-analysis of the deposited data

Results flagged for a closer look

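Of 44 sets of values, each of 1 keratin in 1 group of arrays, 2 held a value that stands apart, where chance gives about 1 in 20 sets. The sets share arrays and are not independent. In the miR-4728-3p controls, replicate 1 was highest for the brighter KRT16 probe, at 10.04 against 9.27 for the next array and 9.16 for the lowest, so that this gap took up 0.870 of the range of the group. In the miR-1 controls, replicate 2 was lowest for KRT8, at 7.84 against 8.24 for the next array and 8.28 for the highest, a gap of 0.903 of the range.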

How the results depend on the processing

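The 2 calls with miR-4728-3p (KRT6C and KRT80), and with miR-1 those of KRT14, KRT16, KRT6C, KRT13 and KRT80, held under each alternative and without each array. With miR-4728-3p the number of keratins called higher was 3 with no background correction, 3 with the authors' normalised values and 3 with a filter at the 75th percentile (KRT15 and KRT8 added). It was 2 with array weights and 2 with the trend and robust options (KRT15 added), and 1 to 3 when an array was left out (395 to 470 over all genes). With miR-1 the number of keratins called higher was 5 with an offset of 16, and 5 to 8 when an array was left out (91 to 153 over all genes). With the replicate block it was also 5. Both settings lost KRT15, KRT7 and KRT8, and over all genes they called 99 and 67 higher and 83 and 37 lower, against 173 and 147. No pairing by replicate number was seen in the deviations of each array from its group mean. Such deviations cannot show whether samples of the same number were handled together. These deviations correlated at -0.12 to 0.06 and -0.39 to 0.04 between mimic and control arrays of the same number. The deviations of 0 mimic arrays correlated best with those of the control of their own number. For the difference between the mimics 4 to 6 keratins were called. The replicate block lost KRT6C (adjusted p = 0.0873 from limma) and KRT10 (0.0674), no filter lost KRT6C (0.0584), and an offset of 16 lost KRT16 (0.0562). KRT18, not called, lay between -0.1305 and 0.0004 when an array was left out (reversed without miR-4728-3p mimic replicate 2), and its difference between -0.0132 and 0.2865 (reversed without miR-1 mimic replicate 1). The number of keratins above background was 10 to 15 in the groups of the first experiment and 11 to 13 in those of the second. The cause of these changes was not tested.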
